A study of Homo sapiens with 8 samples.

Results

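The interferon receptors and the JAK-STAT proteins behind them were followed as 9 genes, chosen by name and role: IFNAR1, IFNAR2, IFNGR1, IFNGR2, JAK1, TYK2, STAT2, IRF9 and SOCS1. All 9 were among the 31461 genes listed in the deposited table, and all 9 were among the 14635 genes that passed the filter on low values. RNA of lung cancer cells, of wild-type genotype per the labels and from lines named A549 (lung adenocarcinoma) and H1299 (large cell lung carcinoma), was sequenced in 8 libraries. Cells had been transfected with miR-29a-3p, whose best known targets are collagens, or with a control microRNA. The 4 groups, of 2 libraries each, were A549-labelled miR-29a-3p, A549-labelled control, H1299-labelled miR-29a-3p and H1299-labelled control. The stated aim was to look for candidate targets of miR-29a-3p. The sources used here do not give the transfection dose, the time of harvest or the sequence of the control microRNA, and untransfected cells were not analysed here.

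Interferons act through receptors made of pairs of chains. Type I interferons bind IFNAR1 with IFNAR2, and type II interferon binds IFNGR1 with IFNGR2. The chains carry JAK kinases, which phosphorylate STAT proteins. STAT2 and IRF9 belong to the complex ISGF3, which binds the interferon-stimulated response element (ISRE), whereas type II interferon acts through the gamma-activated site (GAS). SOCS1 is induced by the pathway and inhibits the kinases. Epithelial cells, lung cells included, carry both receptors.

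The sequence of miR-29a-3p is given because its seed, bases 2 to 8 in capitals, is what the transcripts were searched for. The mature sequence is from RefSeq (GRCh38.p14, chr7:130876748-130876769, minus strand), and the second line is the single seed match found in a 3′ UTR of the 9 genes, in SOCS1 on GRCh38 (chr16:11254636-11254659, minus strand), with the letters that pair with the seed in capitals.
hsa-miR-29a-3p: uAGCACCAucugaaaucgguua
SOCS1 site: ggtcctccccctccTGGTGCTccc
This SOCS1 match is a 7mer-m8 whose core begins at base 199 of a 3′ UTR of 426 bases. An 8mer or 7mer-m8 was held by 5.74% of the 1220 tested genes with a 3′ UTR within 25% of that length. IFNAR1, which has been reported as a target of the miR-29 family, had no 6-base seed match in its annotated 3′ UTR of 4313 bases. Among tested genes with a 3′ UTR within 25% of that length, 60.3% of 1466 held at least 1 such match. The 3′ UTRs of IFNAR2, IFNGR1, IFNGR2, JAK1, TYK2, STAT2 and IRF9 held none either. Over the whole transcript, 6-base matches numbered 1 each in IFNAR1, IFNGR2 and IRF9, 2 in JAK1 and 3 in SOCS1. They numbered 4 each in TYK2 and STAT2 and 0 in IFNAR2 and IFNGR1. A seed match is a match of letters in one annotated transcript per gene, not a measured site.

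The level of each gene is given in FPKM, the fragments of a gene scaled to its transcript length and to the mapped total of the library, in the order library 1 and library 2 of a group. Log2 fold changes are differences of log2(FPKM + 1), miR-29a-3p minus control. Each has its standard error (SE) and an adjusted p from limma, a linear model fitted to all 14635 tested genes with Benjamini-Hochberg adjustment, and a gene was called at an adjusted p under 0.05. Estimated depth was 12221310 to 15614821 fragments per library, and 12021 to 12837 genes reached 1 FPKM. Line markers went against the labels: CDKN2A, a cell cycle inhibitor deleted in A549, stood at 28.1 FPKM in A549-labelled miR-29a-3p libraries and 24.3 in their controls, against 0.0735 and 0.0818 in the H1299-labelled miR-29a-3p and control libraries. Of 8 A549 markers, 6 were called lower in A549-labelled than in H1299-labelled controls and 0 higher by limma, also at an unadjusted p under 0.05. The lines are therefore named by label only. The summed level of the 8 A549 markers was 192 FPKM with miR-29a-3p and 222 in controls of the A549-labelled line, and 2050 with miR-29a-3p and 1178 in controls of the H1299-labelled line. Summed markers of leukocytes were 0.326 FPKM with miR-29a-3p and 0.303 in controls of the A549-labelled line, and 0.982 with miR-29a-3p and 0.525 in controls of the H1299-labelled line. Those of fibroblasts were 0.185 and 0.162 FPKM in A549-labelled miR-29a-3p and control libraries and 2.006 and 1.001 in H1299-labelled ones. Those of endothelial cells were 0.0774 and 0.0994 FPKM in A549-labelled miR-29a-3p and control libraries and 0.144 and 0.0161 in H1299-labelled ones. All 3 sums were thus low but higher with miR-29a-3p in the H1299-labelled line, and their part in the results was not tested.

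**Figure D1:**
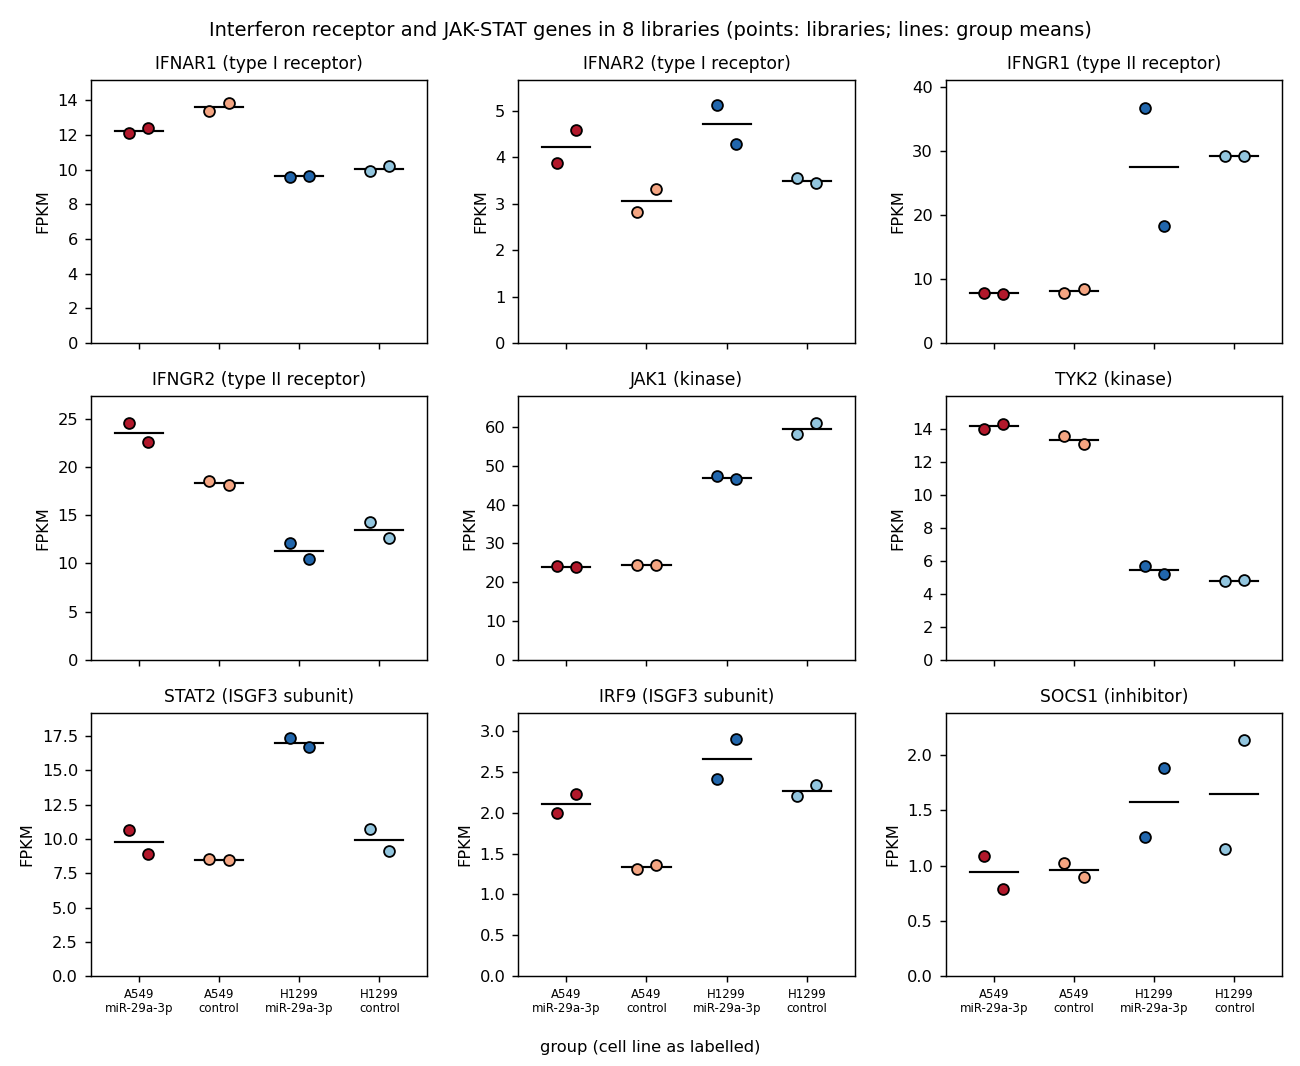
Level of each of the 9 genes (FPKM, linear axis from 0) in the 4 groups, with a point for each library and a line for the group mean. In both lines the miR-29a-3p and control libraries overlap for IFNGR1 and SOCS1 and for none of the other genes. IFNGR1 spreads from 18.3 to 36.6 FPKM between the H1299-labelled miR-29a-3p libraries.

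Few of the 9 genes passed the test after miR-29a-3p. IFNGR2 and IRF9 were higher in A549-labelled libraries, by 1.29-fold and 1.58-fold, but neither call withstood the loss of any one library of that line. IFNAR2 and STAT2 were higher in H1299-labelled libraries, by 1.35-fold and 1.71-fold, and JAK1 was lower there, at 0.787 of its control. These folds are ratios of mean FPKM, whereas every log2 value is of FPKM + 1. In A549-labelled libraries 2 of 9 were called higher and 0 lower, where 16.0% of all tested genes were called by limma, 7.3% higher and 8.66% lower. At an unadjusted p under 0.05, 3 were higher and 1 lower there. The share of all tested genes at that unadjusted threshold was not computed, here or below. In H1299-labelled libraries 2 of 9 were called higher and 1 lower, where 50.0% of all tested genes were called, 25.1% higher and 24.8% lower. The H1299-labelled share called lies below the background of all genes. The A549-labelled share lies above it, but rests on 2 genes whose calls did not withstand the loss of a library. The median log2 fold change of the 9 was 0.084 in A549-labelled libraries and -0.025 in H1299-labelled ones, beside 0.0014 and 0.0012 over all genes tested.

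IFNAR1 (ENSG00000142166, chr21:33324477-33359862, plus strand, GRCh38) encodes the chain of the type I receptor that carries TYK2. It stood at 12.1 and 12.4 FPKM in A549-labelled miR-29a-3p libraries, against 13.4 and 13.8 in their controls. Its H1299-labelled values were 9.60 and 9.64 FPKM with miR-29a-3p, against 9.94 and 10.2 in controls. The miR-29a-3p libraries lay below the controls in each line without overlap, by little. On the log2 scale the change was -0.14 ± 0.045 (SE, 95% interval -0.25 to -0.033, adjusted p = 0.085) in A549-labelled libraries. It was -0.058 ± 0.045 (interval -0.17 to 0.051, adjusted p = 0.33) in H1299-labelled ones. IFNAR1 was thus not called in either line, with means at 0.899 and 0.956 of the control means. Since these are bulk RNA, fewer cells with a transcript and less of it per cell cannot be told apart, here or below.

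IFNAR2 (ENSG00000159110, chr21:33229901-33265675, plus strand) encodes the chain that carries JAK1. It stood at 3.89 and 4.58 FPKM in A549-labelled miR-29a-3p libraries, against 2.82 and 3.32 in controls. In H1299-labelled libraries it stood at 5.14 and 4.30 FPKM with miR-29a-3p, against 3.55 and 3.44 in controls. Each miR-29a-3p library was above both controls of its line. The log2 fold changes were 0.36 ± 0.11 (SE, adjusted p = 0.069) in A549-labelled libraries and 0.34 ± 0.11 (adjusted p = 0.037) in H1299-labelled ones, and the second was called. Their difference was 0.020 (95% interval -0.35 to 0.39, adjusted p = 0.93). The H1299-labelled call was lost without miR-29a-3p library 1 (adjusted p = 0.18), control library 1 (0.10) or control library 2 (0.13), in that line fitted alone (0.056), without the filter (0.081) and with the replicate number as a block (0.057). IFNAR2 shares 44.2% of its exon bases with AP000295.1, a gene of the same strand listed at 2.92 to 4.95 FPKM, so how the deposited values divide these reads is uncertain. AP000295.1 itself overlapped between groups in both lines. Of the IFNAR2 exon bases 39.1% also lie opposite IL10RB-DT, which reached at most 0.209 FPKM.

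**Figure D2:**
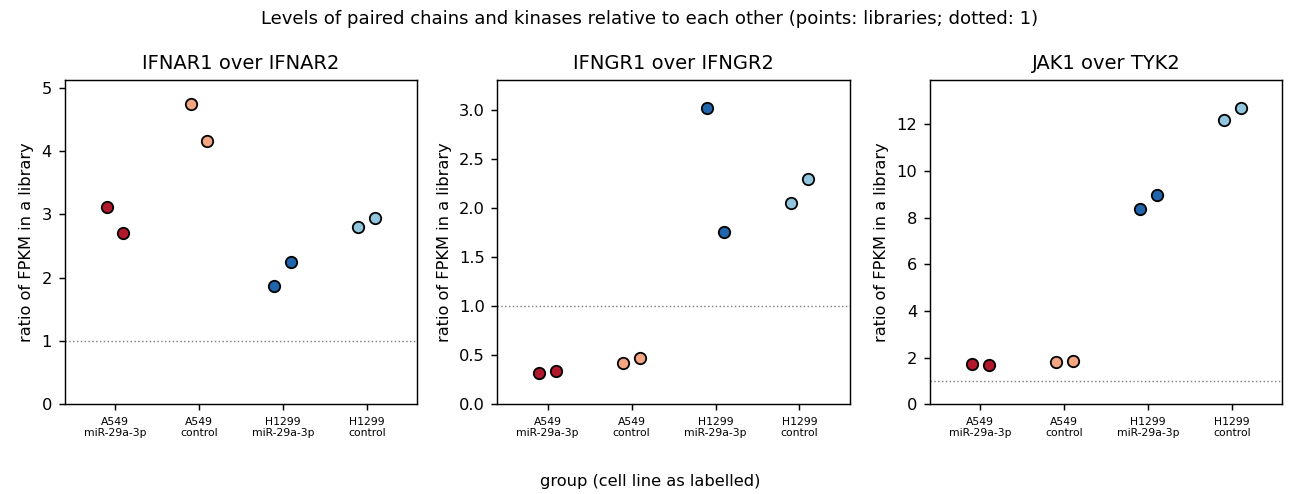
Ratio of the FPKM of IFNAR1 to IFNAR2, IFNGR1 to IFNGR2 and JAK1 to TYK2 (linear axes from 0) by group, with a point for each of the 8 libraries and a dotted line at a ratio of 1. IFNAR1 over IFNAR2 is lower with miR-29a-3p than in controls of both lines, and JAK1 over TYK2 separates the lines.

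Within a library, IFNAR1 exceeded IFNAR2 throughout, by 3.11 and 2.70 times in A549-labelled miR-29a-3p libraries and 4.74 and 4.16 times in their controls. In H1299-labelled libraries the ratio was 1.87 and 2.24 with miR-29a-3p and 2.80 and 2.95 in controls. The groups of a line did not overlap, with the miR-29a-3p libraries lower in both. The ratio is a description and was not tested.

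The chains of the type II receptor stood at unlike levels in the lines. IFNGR1 (ENSG00000027697, chr6:137197484-137219449, minus strand) encodes the chain that binds interferon gamma. It stood at 7.89 and 7.73 FPKM in A549-labelled miR-29a-3p libraries and 7.77 and 8.47 in their controls. Its H1299-labelled values were 36.6 and 18.3 FPKM with miR-29a-3p, against 29.1 and 29.1 in controls. The groups overlapped in both lines, and the H1299-labelled miR-29a-3p libraries lay one above and one below both controls. The log2 fold change was -0.048 ± 0.27 (SE, adjusted p = 0.93) in A549-labelled libraries and -0.16 ± 0.27 (95% interval -0.82 to 0.50, adjusted p = 0.66) in H1299-labelled ones. This SE is shared by all groups and takes in the spread of the H1299-labelled miR-29a-3p libraries. With the A549-labelled line fitted alone, the SE of its change was 0.065. The H1299-labelled value rested on which library was kept. It was -0.64 (adjusted p = 0.0019) without miR-29a-3p library 1 and 0.32 (adjusted p = 0.016) without miR-29a-3p library 2, so no direction is given for IFNGR1. The difference between the lines, 0.11 (adjusted p = 0.84) with all libraries, was 0.59 (0.0080) and -0.37 (0.031) in these fits.

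IFNGR2 (ENSG00000159128, chr21:33402896-33479348, plus strand) encodes the signalling chain that carries JAK2. It stood at 24.6 and 22.6 FPKM in A549-labelled miR-29a-3p libraries, against 18.6 and 18.1 in controls. In H1299-labelled libraries it stood at 12.1 and 10.4 FPKM with miR-29a-3p, against 14.3 and 12.7 in controls. The miR-29a-3p libraries were therefore the higher ones in the first line and the lower ones in the second, with no overlap in either. On the log2 scale the change was 0.34 ± 0.088 (SE, adjusted p = 0.047) in A549-labelled libraries and -0.24 ± 0.088 (adjusted p = 0.065) in H1299-labelled ones. The first was called and the second was not, although it passed with the replicate number as a block (adjusted p = 0.019) and without miR-29a-3p library 1 (0.035). The A549-labelled call was lost without any one library of that line (adjusted p = 0.088 to 0.18) or without either H1299-labelled control (0.056). It was also lost with a pseudocount of 0.1 (0.054), without the filter (0.099), rescaled (0.056), without a trend in the variance (0.056) or fitted alone (0.054). The difference between the lines, 0.58 ± 0.12 (SE, 95% interval 0.28 to 0.88, adjusted p = 0.013), passed in all 14 alternatives. Of the IFNGR2 exon bases 12.8% lie opposite TMEM50B, listed at 0.788 to 3.45 FPKM, whose reads cannot be told apart there without strand.

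IFNGR2 exceeded IFNGR1 in A549-labelled libraries and IFNGR1 exceeded IFNGR2 in H1299-labelled ones. The ratio of IFNGR1 to IFNGR2 was 0.320 and 0.343 with miR-29a-3p and 0.418 and 0.467 in controls of the A549-labelled line. It was 3.02 and 1.76 with miR-29a-3p and 2.05 and 2.30 in controls of the H1299-labelled line. The lower ratio with miR-29a-3p in the A549-labelled line had no overlap with its controls, whereas the H1299-labelled groups overlapped.

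JAK1 (ENSG00000162434, chr1:64833229-64966504, minus strand) encodes a kinase that serves both receptors, and it was the most abundant of the 9 transcripts in every group. It fell in H1299-labelled libraries, to 47.3 and 46.5 FPKM with miR-29a-3p, against 58.2 and 61.1 in controls. In A549-labelled libraries it stood at 24.1 and 23.9 FPKM with miR-29a-3p, against 24.5 and 24.5 in controls. The H1299-labelled groups stood far apart relative to their spread, and the A549-labelled groups did not overlap but lay close, with the mean at 0.982 of the control mean. The log2 fold change was -0.34 ± 0.041 (SE, adjusted p = 0.00081) in H1299-labelled libraries, called in all 15 alternatives, and -0.026 ± 0.041 (95% interval -0.13 to 0.074, adjusted p = 0.73) in A549-labelled ones. Their difference was 0.31 ± 0.058 (adjusted p = 0.0076), called in all 14 alternatives.

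TYK2 (ENSG00000105397, chr19:10350529-10380676, minus strand) encodes the kinase bound to IFNAR1. It stood at 14.01 and 14.31 FPKM in A549-labelled miR-29a-3p libraries, against 13.5 and 13.1 in controls. Its H1299-labelled values were 5.65 and 5.18 FPKM with miR-29a-3p, against 4.75 and 4.82 in controls. The miR-29a-3p libraries were the higher ones in both lines, without overlap. Neither change was called, at 0.084 ± 0.055 (SE, adjusted p = 0.36) in A549-labelled and 0.15 ± 0.055 (adjusted p = 0.064) in H1299-labelled libraries. The H1299-labelled value passed when rescaled (adjusted p = 0.035) and without miR-29a-3p library 2 (0.049). JAK1 exceeded TYK2 by 8.38 and 8.98 times in H1299-labelled miR-29a-3p libraries and by 12.2 and 12.7 times in their controls. In A549-labelled libraries the ratio was 1.72 and 1.67 with miR-29a-3p and 1.81 and 1.87 in controls.

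**Figure D3:**
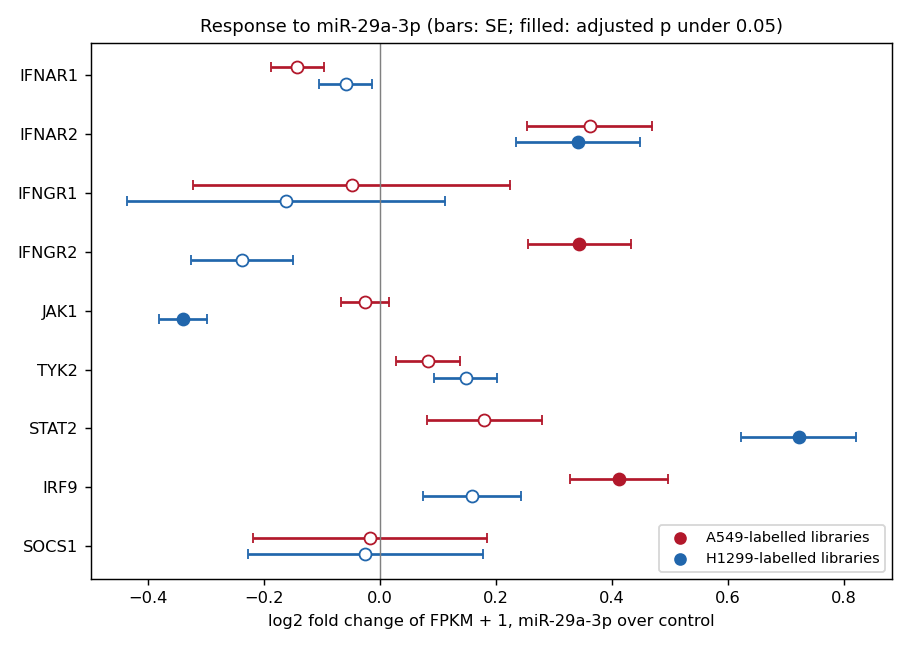
Log2 fold change of each gene on the log2(FPKM + 1) scale, miR-29a-3p over control, in A549-labelled and H1299-labelled libraries, with bars for the SE from limma and filled points for an adjusted p under 0.05. JAK1 (-0.34) and STAT2 (0.72) stand clear of 0 in the H1299-labelled line, and the SE of IFNGR1 (0.27) is the widest of the 9.

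STAT2 (ENSG00000170581, chr12:56341597-56360155, minus strand) encodes the transactivating subunit of ISGF3. Its 1.71-fold change in H1299-labelled libraries was the largest of the 9 genes over both lines, whereas in A549-labelled libraries IRF9 changed most. It rose in H1299-labelled libraries, to 17.3 and 16.7 FPKM with miR-29a-3p, against 10.7 and 9.15 in controls. In A549-labelled libraries it stood at 10.7 and 8.91 FPKM with miR-29a-3p, against 8.51 and 8.49 in controls. The H1299-labelled groups lay well apart, and in A549-labelled libraries miR-29a-3p library 2 was close to the controls. On the log2 scale the change was 0.72 ± 0.099 (SE, adjusted p = 0.0013) in H1299-labelled libraries, called in all 15 alternatives, and 0.18 ± 0.099 (adjusted p = 0.27) in A549-labelled ones. The difference of -0.54 ± 0.14 (adjusted p = 0.025) passed in 7 of 14 alternatives. It was lost without the filter (0.057), without A549-labelled miR-29a-3p library 2 (0.055) or either A549-labelled control (0.065), and without either H1299-labelled miR-29a-3p library (0.055 to 0.073) or H1299-labelled control 2 (0.065).

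IRF9 (ENSG00000213928, chr14:24161053-24166565, plus strand) encodes the DNA-binding subunit of ISGF3. It was higher in A549-labelled libraries, at 1.998 and 2.228 FPKM with miR-29a-3p, against 1.31 and 1.36 in controls. In H1299-labelled libraries it stood at 2.41 and 2.91 FPKM with miR-29a-3p, against 2.21 and 2.34 in controls. Both miR-29a-3p libraries were above both controls in each line. The log2 fold change was 0.41 ± 0.084 (SE, adjusted p = 0.023) in A549-labelled libraries and 0.16 ± 0.084 (adjusted p = 0.17) in H1299-labelled ones, and the difference of 0.25 (95% interval -0.034 to 0.54) was not called (adjusted p = 0.14). The A549-labelled call was lost without any one library of that line (adjusted p = 0.061 to 0.10), without the filter (0.054) and with the line fitted alone (0.060). IRF9 shares 48.4% of its exon bases with AL136295.5, a gene of the same strand. AL136295.5 was listed at 5.58 and 5.21 FPKM with miR-29a-3p and 3.12 and 4.93 in controls of the A549-labelled line, and at 11.1 and 8.49 with miR-29a-3p and 5.70 and 4.32 in controls of the H1299-labelled line. It was called in H1299-labelled libraries (0.84, adjusted p = 0.015) and not in A549-labelled ones (0.37, adjusted p = 0.28), so the share of reads that the deposited values give to IRF9 is uncertain. STAT2 exceeded IRF9 by 5.35 and 4.0 times in A549-labelled miR-29a-3p libraries and 6.47 and 6.25 times in their controls. The ratio was 7.18 and 5.74 in H1299-labelled miR-29a-3p libraries and 4.86 and 3.91 in their controls, so it was the lower with miR-29a-3p in the first line and the higher in the second, without overlap.

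SOCS1 (ENSG00000185338, chr16:11254405-11256200, minus strand), the kinase inhibitor of the pathway and the gene with the seed match printed above, was the least abundant of the 9 in every group. It stood at 1.09 and 0.792 FPKM in A549-labelled miR-29a-3p libraries, against 1.02 and 0.892 in controls. Its H1299-labelled values were 1.26 and 1.88 FPKM with miR-29a-3p, against 1.15 and 2.14 in controls. The groups overlapped in both lines. On the log2 scale the change was -0.017 ± 0.20 (SE, 95% interval -0.50 to 0.47, adjusted p = 0.97) in A549-labelled libraries and -0.025 ± 0.20 (interval -0.51 to 0.46, adjusted p = 0.94) in H1299-labelled ones. A change of up to 0.46 on the log2(FPKM + 1) scale in either direction lies within the intervals of both lines. At the low level of SOCS1 this scale understates a change, so the fold change in FPKM that these intervals allow is larger. Over all tested genes with an 8mer or 7mer-m8 match in the 3′ UTR (1858 genes), the median log2 fold change was -0.10 in A549-labelled and -0.12 in H1299-labelled libraries. It was 0.018 and 0.041 in genes with no 6mer (7757 genes). These sets of genes were not matched for 3′ UTR length, and an effect of the match itself was not tested.

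Counting libraries rather than calls, 5 of the 9 genes were higher and 2 lower without overlap in A549-labelled libraries, and 4 were higher and 3 lower in H1299-labelled ones. Over all tested genes 59.0% did not overlap in A549-labelled libraries, 29.8% higher and 29.2% lower, and 76.0% did not in H1299-labelled ones, 38.5% higher and 37.4% lower. IFNAR1 and JAK1 were lower and IFNAR2, TYK2, STAT2 and IRF9 higher without overlap in both lines, while IFNGR2 lay on opposite sides. The share of all tested genes on the same side in both lines was not computed. None of these genes was called in both lines, and IFNAR1 and TYK2 were called in neither. The responses of the lines differed by the test of the difference in 3 of the 9 genes (IFNGR2 and JAK1 positive, STAT2 negative), against 37.3% of all tested genes.

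The promoters of IRF9 and SOCS1 are shown because they were the only ones of the 8 found in RefSeq that held a GAS (TTCNNNGAA) or a core ISRE (GAAA, any 2 bases, GAAA), searched on both strands from 250 bases before the start to 50 after. A stretch of 60 bases around each match is given on GRCh38.p14, at chr14:24161177-24161236 (plus strand) for IRF9 and chr16:11256283-11256342 (minus strand) for SOCS1, with the motif in capitals. Distances are counted from the RefSeq start, which can differ from the start of the gene spans given above. For IRF9 the stretch lies inside that span, downstream of its first base at 24161053.
IRF9 promoter, GAS 63 bases upstream: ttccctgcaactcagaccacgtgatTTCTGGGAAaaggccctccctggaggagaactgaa
SOCS1 promoter, ISRE core 113 bases upstream: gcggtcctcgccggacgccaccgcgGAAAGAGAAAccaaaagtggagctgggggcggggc
A core ISRE was found in 3.6% and a GAS in 7.9% of 27305 promoters. IFNAR1, IFNGR1, IFNGR2, JAK1, TYK2 and STAT2 held neither within this window, which says nothing of sites elsewhere. The windows for IFNGR1 (chr6:137219147-137219446) and IFNGR2 (chr21:33403163-33403462) lay inside the gene spans given above. That for JAK1 (chr1:65067697-65067996) lay apart from its gene span, which ends at 64966504. The matches shown are letters in a reference sequence, and binding was not measured.

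In the controls 6 of the 9 genes differed between the lines, where 74.8% of all tested genes did. TYK2 was higher in A549-labelled controls, at 13.3 ± 0.33 FPKM, against 4.79 ± 0.046 in H1299-labelled controls (SD, n = 2 each). JAK1 was lower there, at 24.5 ± 0.018 against 59.6 ± 2.06 FPKM, and so was IFNGR1, at 8.12 ± 0.49 against 29.1 ± 0.0022 FPKM. Their log2 differences, A549-labelled minus H1299-labelled control, were 1.31 ± 0.055 (SE, adjusted p = 2.2e-06) for TYK2, -1.25 ± 0.041 (adjusted p = 8.3e-07) for JAK1 and -1.73 ± 0.27 (adjusted p = 0.0012) for IFNGR1. The median of all tested genes was 0.17 in this comparison and 0.010 after rescaling, and after rescaling these values were 1.11, -1.46 and -1.93. The SE of IFNGR1 also takes in the spread of the H1299-labelled miR-29a-3p libraries, which are not part of this comparison.

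Of the other genes, IFNAR1 (0.40, adjusted p = 0.00022) and IFNGR2 (0.42, adjusted p = 0.0044) were higher and IRF9 (-0.49, adjusted p = 0.0019) was lower in A549-labelled controls, making 3 of 9 higher and 3 of 9 lower. Over all tested genes 45.0% were called higher and 29.8% lower. After rescaling, IFNAR1 stood at 0.20 (adjusted p = 0.0055) and IRF9 at -0.62 (adjusted p = 0.00054), while IFNGR2 was no longer called (0.22, adjusted p = 0.070). IFNAR2 (-0.15, adjusted p = 0.25), STAT2 (-0.20, adjusted p = 0.11) and SOCS1 (-0.41, adjusted p = 0.11) were not called as deposited. IFNAR2 (-0.31, adjusted p = 0.031) and STAT2 (-0.40, adjusted p = 0.012) passed after rescaling. STAT2 also passed without H1299-labelled control 2 (-0.30, adjusted p = 0.049), and SOCS1 without H1299-labelled control 1 (-0.68, adjusted p = 0.018).

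By level, JAK1 came first and IFNAR2, IRF9 and SOCS1 came last, in this order, in all 4 groups. IFNGR2 came second in A549-labelled groups, at 23.6 FPKM with miR-29a-3p, where it overlapped JAK1, and at 18.4 in controls, where it did not. IFNGR1 came second in H1299-labelled groups, at 27.5 FPKM with miR-29a-3p and 29.1 in controls. IFNAR1 and TYK2 overlapped in A549-labelled controls, and IFNAR1 and STAT2 in H1299-labelled controls, while other neighbours in the order did not overlap. By Pearson correlation of log2(FPKM + 1) over the 8 libraries, the genes nearest to IFNAR1 were H1-2 (0.998), SPTLC1 (0.998) and OSBPL8 (0.997). Those nearest to IRF9 were JUNB (0.986), PEX6 (0.980) and MLLT6 (0.971). With 8 libraries of 2 lines these coefficients describe likeness only, since the libraries of a line share its level.

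**Figure D4:**
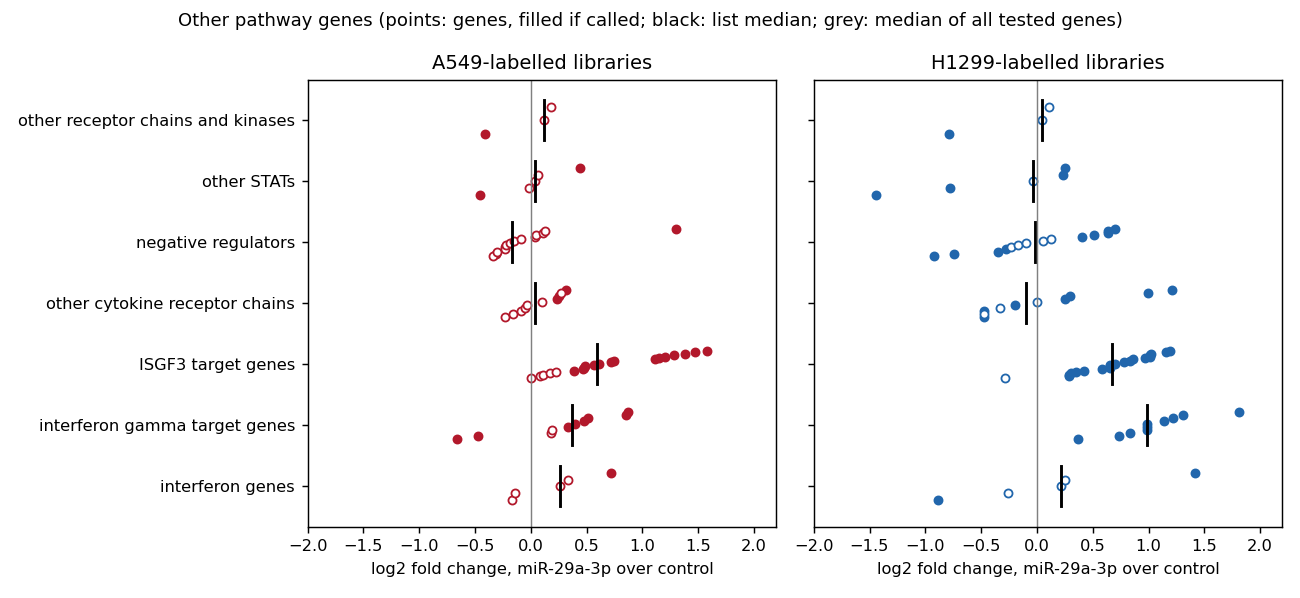
Log2 fold change (log2(FPKM + 1) scale, miR-29a-3p over control) of the tested genes of each pathway list, with a point for each gene (filled if called), a black line for the list median and a grey line for the median of all tested genes, in A549-labelled (left) and H1299-labelled (right) libraries. The ISGF3 target genes lie almost all right of the grey line, with medians of 0.59 and 0.68.

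The other genes of the pathway were read from fixed lists. Among all tested genes, 7.3% were called higher and 8.66% lower in A549-labelled libraries, and 25.1% and 24.8% in H1299-labelled ones. These shares are the background for the called counts of every list below, and not for the counts at an unadjusted p. Of 3 tested receptor chains and kinases (IFNLR1, IL10RB and JAK2, while JAK3 was under the filter), 1 was lower and 0 higher in each line by limma, with the same counts at an unadjusted p under 0.05. It was IL10RB, a chain of the type III interferon and interleukin 10 receptors, at 7.43 and 7.95 FPKM with miR-29a-3p against 10.1 and 11.1 in controls of the A549-labelled line. In H1299-labelled libraries IL10RB stood at 5.59 and 5.60 FPKM with miR-29a-3p, against 10.5 and 10.3 in controls. The groups of IL10RB lay apart in both lines, with log2 fold changes of -0.41 ± 0.061 (SE, adjusted p = 0.0082) in A549-labelled and -0.78 ± 0.061 (adjusted p = 0.00014) in H1299-labelled libraries. The A549-labelled call was lost with that line fitted alone (adjusted p = 0.055).

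Of 5 other STATs tested, 1 rose and 1 fell in A549-labelled libraries (median log2 fold change 0.038), and 2 rose and 2 fell in H1299-labelled ones (median -0.035). The H1299-labelled count that rose was 0 by limma without miR-29a-3p library 2 or control library 1 of that line, and 1 without H1299-labelled miR-29a-3p library 1, H1299-labelled control 2 or either A549-labelled control. STAT6 rose by 0.44 (adjusted p = 0.0061) and STAT3 fell to 6.91 FPKM in A549-labelled libraries, against 9.84 in their controls (-0.46, adjusted p = 0.0060). With the line fitted alone, STAT6 was no longer called (adjusted p = 0.056). STAT5B and STAT5A fell in H1299-labelled libraries, STAT5B to 9.09 and 9.44 FPKM with miR-29a-3p, against 27.3 and 26.6 in controls. Their log2 fold changes were -1.44 (adjusted p = 1e-05) for STAT5B and -0.78 (adjusted p = 0.00028) for STAT5A, and neither was called in A549-labelled libraries (0.062 and 0.038). STAT5A was near the floor there, at 0.259 FPKM with miR-29a-3p and 0.226 in controls. In the H1299-labelled line it stood at 1.49 and 3.26 FPKM. At the A549-labelled level the log2(FPKM + 1) scale understates a change. STAT6 rose by 0.25 in H1299-labelled libraries (adjusted p = 0.014), a call lost without miR-29a-3p library 2 (0.072) or control library 1 (0.075) of that line.

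Among 14 tested negative regulators 1 rose and 2 fell in A549-labelled libraries (median -0.17), and 5 rose and 4 fell in H1299-labelled ones (median -0.020). USP18, a protease that binds IFNAR2 and blocks JAK1, rose to 44.5 and 40.4 FPKM with miR-29a-3p in the A549-labelled line, against 16.3 and 16.9 in controls (1.30 ± 0.067, adjusted p = 0.00031). The genes that fell there were the STAT inhibitors PIAS2 (-0.31, adjusted p = 0.032) and PIAS3 (-0.23, adjusted p = 0.032). Without one library, PIAS2 lost its call in 7 of 8 cases (adjusted p = 0.055 to 0.13, every library but A549-labelled control 1) and PIAS3 in 6 (0.059 to 0.12, every library but the H1299-labelled controls). With the line fitted alone neither passed (0.11 and 0.074). In H1299-labelled libraries SOCS7 fell (-0.92, adjusted p = 8.8e-05), PIAS4 fell (-0.74, adjusted p = 0.0012) and PIAS3 rose (0.70, adjusted p = 0.00012).

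Of 10 tested chains of other cytokine receptors that use JAK kinases, 3 rose and 0 fell in A549-labelled libraries by limma (median 0.037), and at an unadjusted p under 0.05 3 were higher and 1 lower. They were IL7R (0.32, adjusted p = 0.031), IL13RA1 (0.25, adjusted p = 0.018) and OSMR (0.23, adjusted p = 0.025). Without any one A549-labelled library these calls were lost, with adjusted p from 0.066 to 0.12, and IL7R (0.052) and OSMR (0.072) were also lost with the line fitted alone. In H1299-labelled libraries 4 rose and 3 fell (median -0.099), and 2 rose without miR-29a-3p library 1 or control library 1 of that line. Without H1299-labelled miR-29a-3p library 2 or control 2, or either A549-labelled control, 3 rose. The named ones were IL7R (1.21, adjusted p = 5.4e-05) and IL13RA1 (0.995, adjusted p = 2.7e-05), which rose, and IL6ST (-0.48, adjusted p = 0.0042), the shared chain of the interleukin 6 family, which fell.

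The lists of interferon target genes had larger median changes than the 9 genes (0.084 in A549-labelled and -0.025 in H1299-labelled libraries). Whether these changes came through the receptors was not tested. Of 20 ISGF3 target genes 15 rose and 0 fell in A549-labelled libraries (median 0.59), and 19 rose and 0 fell in H1299-labelled ones (median 0.68), by limma. Among all tested genes, 7.3% were called higher and 8.66% lower in A549-labelled libraries, and 25.1% and 24.8% in H1299-labelled ones. At an unadjusted p under 0.05, 17 were higher and 0 lower in A549-labelled libraries, and 19 higher and 1 lower in H1299-labelled ones. Without 1 library, 12 to 14 rose in A549-labelled libraries and 16 to 19 in H1299-labelled ones, where 1 fell without either A549-labelled control. IFIT3, an antiviral protein, stood at 477 and 479 FPKM with miR-29a-3p in the A549-labelled line, against 156 and 162 in controls (1.58, adjusted p = 4.9e-05). IFIT2 (1.47, adjusted p = 4.9e-05) and IFI44 (1.38, adjusted p = 0.00035) followed there. In the H1299-labelled line IFIT1 stood at 82.9 and 85.9 FPKM with miR-29a-3p, against 35.7 and 37.2 in controls (1.19, adjusted p = 1.6e-05), followed by IFI6 (1.16, adjusted p = 0.00024) and IFIT2 (1.03, adjusted p = 1.7e-05).

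Of 10 tested target genes of interferon gamma 6 rose and 2 fell in A549-labelled libraries (median 0.37), and 10 rose and 0 fell in H1299-labelled ones (median 0.99), by limma. At an unadjusted p under 0.05, 8 were higher and 2 lower in A549-labelled libraries, and 10 higher and 0 lower in H1299-labelled ones. The A549-labelled count that rose was 3 without miR-29a-3p library 1 or control library 1, 4 without control library 2 and 5 without miR-29a-3p library 2, and 1 fell without miR-29a-3p library 1 or control library 2. In A549-labelled libraries IRF1, a transcription factor, rose by 0.87 (adjusted p = 0.00079) and ICAM1, an adhesion molecule, by 0.85 (adjusted p = 0.0010). GBP2, a guanylate-binding protein, fell there to 0.829 and 0.759 FPKM with miR-29a-3p, against 1.83 and 1.84 in controls (-0.66, adjusted p = 0.0083). In H1299-labelled libraries CXCL10, a chemokine, rose to 14.6 and 15.1 FPKM with miR-29a-3p, against 3.38 and 3.69 in controls (1.81, adjusted p = 2.3e-05). GBP1 (1.31, adjusted p = 4.7e-05) and GBP4 (1.22, adjusted p = 6e-05) came next.

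Among 5 tested interferon genes, the ligands, 1 rose and 0 fell in A549-labelled libraries by limma (median 0.26; 2 and 0 at an unadjusted p under 0.05), and 1 rose and 1 fell in H1299-labelled ones (median 0.22). IFNB1 rose in A549-labelled libraries (0.72, adjusted p = 0.015), a call lost without miR-29a-3p library 1 (0.052), miR-29a-3p library 2 (0.076) or control library 2 (0.067) of that line and with the line fitted alone (0.058). In H1299-labelled libraries IFNE rose (1.42, adjusted p = 6.2e-05) and IFNL1 fell (-0.89, adjusted p = 0.00016). IFNA1 was under the filter, and IFNG and IFNK were not among the gene names listed in the deposited table.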

How the data were processed

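RNA came from 8 libraries, 2 for each of 4 groups (TRIzol extraction and a VAHTS library kit, per the labels' protocols). The deposited FPKM values, 1 per gene and library, stand in a single table of the authors, which per the file headers has a block of genes for A549 (27756) and one for H1299 (28609). StringTie and GRCh38 are named in the submitters' processing notes. The sources used here do not give the aligner, annotation release, strand setting or tool versions, so reads of overlapping genes could be shared.

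FPKM were used without rescaling, with 0 for a gene absent from the block of 1 line. The filter kept 14635 genes (1 FPKM or more in 2 or more libraries). They were tested by limma 3.58.1 (R 4.3.3) on log2(FPKM + 1), which understates the change of low genes, using 4 group means and a variance prior that follows expression (4 residual degrees of freedom, prior 2.36). Benjamini-Hochberg adjustment covered all tested genes, with calls under 0.05. Contrasts set miR-29a-3p against control within each line, compared these responses (A549-labelled minus H1299-labelled), and set A549-labelled against H1299-labelled controls. The test was checked on simulated data. The plan allowed for a count test too, which FPKM do not permit.

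Depth was estimated from the smallest steps of the values, and 38.2% to 42.1% of values came out whole within 0.02 fragments, so no count test was run. The labels do not state separate cultures: p-values measure only how far these libraries vary, which may be technical. Replicates held 0 identical values, differed by a median of 0.075 to 0.085 on the log2 scale, and had a chi-square of 1.94 to 2.19 per degree of freedom.

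Genes, lists, tests and the rule for naming genes (all 9 genes, the genes most like IFNAR1 and IRF9, and in each list at most 3 called genes per line with the largest change) were chosen with earlier results of these data known. Positions and 3′ UTRs (the longest protein-coding transcript) came from GENCODE release 29, where 31105 of 31461 identifiers matched. RefSeq gave the miRNA and promoter sequences, with no promoter entry for IFNAR2. Alternatives were another pseudocount, other filters, rescaling, a variance prior without a trend, each line alone, the replicate number as a block and each library left out. A result on the wider pathway is not reported here.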

Additional observations from a re-analysis of the deposited data

Results flagged for a closer look

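The results here were marked because the responses to miR-29a-3p differed between the lines by the test of the difference (A549-labelled minus H1299-labelled, log2 scale, limma, adjusted over all tested genes, of which 37.3% passed). Among the 9 genes these were IFNGR2 (0.58, adjusted p = 0.013), JAK1 (0.31, adjusted p = 0.0076) and STAT2 (-0.54, adjusted p = 0.025).

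Over the pathway lists, 6 of 20 ISGF3 target genes had a called positive and 6 a called negative difference, and 0 and 6 of 10 interferon gamma target genes did (0 and 7 at an unadjusted p under 0.05). Values follow only for the pathway genes named in the report. Their differences were positive for STAT5B (1.51), IFNL1 (1.15), STAT5A (0.82), SOCS7 (0.77), IFIT3 (0.75), IFI44 (0.68), USP18 (0.67), IL6ST (0.58), IFIT2 (0.45), PIAS4 (0.44), OSMR (0.43) and IL10RB (0.37). STAT5B and STAT5A fell in the H1299-labelled line, whereas IFIT3, IFI44, USP18 and IFIT2 rose in both lines and by more in the A549-labelled one. STAT5A stood at only 0.259 FPKM with miR-29a-3p and 0.226 in controls of the A549-labelled line, where this scale understates a change. The adjusted p ranged from 6.6e-05 for STAT5B to 0.049 for PIAS4. PIAS4 lost its call without any one library but H1299-labelled miR-29a-3p library 1 (adjusted p = 0.057 to 0.13). IL10RB lost its call without H1299-labelled control 1 (0.052).

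Among the same named genes, differences were negative for CXCL10 (-2.28), GBP2 (-1.65), IFNE (-1.56), GBP4 (-1.04), GBP1 (-0.97), PIAS3 (-0.93), IL7R (-0.89), IL13RA1 (-0.74), IFI6 (-0.68) and STAT3 (-0.42). CXCL10 and GBP2 had log2 fold changes of -0.47 and -0.66 in A549-labelled libraries, against 1.81 and 0.99 in H1299-labelled ones. The A549-labelled change of CXCL10 was not called without miR-29a-3p library 1 (adjusted p = 0.062) or control library 2 (0.081) of that line.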

How the results depend on the processing

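The number of the 9 genes called in A549-labelled libraries, 2 as reported, was 1 with a pseudocount of 0.1, with a mean of at least 5 FPKM, after rescaling or without a variance trend, and 0 by limma without a filter or with the line fitted alone (adjusted p of IRF9 0.054 and 0.060). Leaving out 1 library gave 0 to 2, with 0 for each A549-labelled library. In H1299-labelled libraries the count of 3 became 2 to 5, with 5 without miR-29a-3p library 2. Over all genes, 2336 were called in A549-labelled libraries, 1071 with the line fitted alone and 1066 to 1937 without 1 library. With a mean of at least 5 FPKM, which tests fewer genes, 3773 genes were called in H1299-labelled libraries (7312 as reported), 2984 for the difference (5464 as reported) and 4923 between controls (10941 as reported). A group left with 1 library is assumed to vary like the others. Of the single values of the 9 genes, 452 kept direction and call, 10 gained and 31 lost a call with the same sign, and 17 changed sign, of which 2 (both IFNGR1 without H1299-labelled miR-29a-3p library 2) then passed; the causes were not tested.

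With the replicate number as a block, 1969 genes were called in A549-labelled and 7134 in H1299-labelled libraries, and 2 and 3 of the 9. Deviations of same-numbered libraries correlated at -0.04 to 0.06 over all tested genes. The labels do not say what the number marks, and single genes were not tested for such a link.

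Signs that turned were of changes not called as reported. Over the fits without 1 library, in A549-labelled libraries, IL6ST ranged from -0.0092 to 0.22, SOCS1 from -0.13 to 0.094, and IFNGR1 from -0.10 to 0.0068. In H1299-labelled libraries IFNGR1 ranged from -0.64 to 0.32, SOCS1 from -0.30 to 0.25 and STAT3 from -0.10 to 0.032. For the difference between lines the ranges were -0.37 to 0.59 for IFNGR1, -0.099 to 0.038 for PIAS2, -0.028 to 0.11 for IRF1, -0.080 to 0.0067 for IFIT1, -0.086 to 0.13 for IFNAR2 and -0.27 to 0.28 for SOCS1. It was -0.012 for IRF1, -0.021 for IFNAR2 and -0.013 for SOCS1 after rescaling, and 0.034 for PIAS2 and -0.011 for SOCS1 with a pseudocount of 0.1.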
